A study of Homo sapiens with 4 samples.

Results

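The SLC2 genes encode the GLUT proteins, which carry hexoses and related small molecules across membranes along their gradients. Here 10 of them, SLC2A1, SLC2A2, SLC2A3, SLC2A5, SLC2A6, SLC2A8, SLC2A9, SLC2A10, SLC2A12 and SLC2A13, were followed in human kidney cells without and with induction of the oncogenic fusion protein PRCC-TFE3. They are 10 of the 14 SLC2 transporter genes and of the 34080 genes to which the transcript tables could be assigned. The genes were selected on the estimated counts of this same comparison, in which a large decrease of SLC2A2 was already known, so their levels and differences are given as a description and no p-value is attached to any of them.

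HK-2, an immortalized line derived from human proximal tubule, carried a doxycycline-inducible HA-tagged PRCC-TFE3 built with the Tet-On 3G system, and this transgene was present in every culture. Cells without doxycycline, Doxy(-), were compared with cells given doxycycline at 0.2 microg/ml for 24 h, Doxy(+), with 2 polyA RNA libraries in each group, both kept in 1.5% serum. The labels do not say whether the line is a clone or a pool, or whether the libraries numbered 1 and 2 came from separate cultures, so the spread between them may be technical. No culture lacking the transgene was analyzed here, and an effect of doxycycline and an effect of PRCC-TFE3 cannot be told apart.

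The libraries held between 14042545 and 16618401 estimated reads. CPM below is the estimated count of a gene per 1000000 reads on matched genes after TMM scaling, and TPM is the length-corrected abundance deposited per transcript and summed per gene. The SLC2 genes are ranked against each other by TPM, and by CPM per kilobase of the leading coding transcript where stated. TFE3, whose transcripts collect the reads of the fusion's TFE3 portion, was at 66.8 and 69.0 CPM in Doxy(-) and 367 and 321 CPM in Doxy(+). PRCC was at 50.1 and 47.1 CPM in Doxy(-) and 47.6 and 60.0 CPM in Doxy(+), with overlapping groups. Of 10 proximal tubule markers, LRP2, AQP1, ANPEP and SLC22A6 were at 0 to 3 counts in every library, while GGT1, SLC4A4 and DAB2 carried most of the sum. By edgeR's adjusted p alone GGT1 (0.0410) and DAB2 (0.00455) rose, and SLC4A4 and SLC34A1 had log2 fold changes of -0.19 and -1.64 that did not pass. The summed level of the list was 165 to 166 CPM in Doxy(-) and 180.0 to 187 CPM in Doxy(+). The renal epithelial markers were led by PAX8, and 8 of them summed to 1285 to 1302 CPM in Doxy(-) and 1201 to 1221 CPM in Doxy(+). UMOD and AQP2, which mark other nephron segments, had no count in any library. The 9 markers of other cell types summed to 167 to 171 CPM in Doxy(-) and 206 to 208 CPM in Doxy(+), most of it CD68. By edgeR's adjusted p alone CD68 rose (0.00208) and COL1A1 fell (0.0414), with log2 fold changes of 0.37 and -0.40. The immune marker PTPRC and the endothelial markers PECAM1 and VWF were under 1 CPM in every library. The part of these markers in the results below was not tested.

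GLUT proteins fall into 3 classes. Class I holds the main glucose carriers, with GLUT1 (SLC2A1) supplying basal uptake in most cells, GLUT2 (SLC2A2) a low-affinity, high-capacity carrier of liver, beta cell, intestine and kidney, and GLUT3 (SLC2A3) a high-affinity carrier best known from neurons. Class II includes the fructose carrier GLUT5 (SLC2A5) and the urate carrier GLUT9 (SLC2A9), and class III the largely intracellular GLUT6 and GLUT8 and the proton-coupled myo-inositol carrier HMIT (SLC2A13). In the proximal tubule, glucose enters from the lumen through sodium-coupled SGLT proteins and leaves toward the blood through GLUT2 and GLUT1.

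First, the size of the whole comparison was set. Of 13569 genes that passed the filter on low counts, 268 (1.98%) were called by edgeR's quasi-likelihood test, with a Benjamini-Hochberg adjusted p under 0.05 and a log2 fold change above 1 or below -1. Among all tested genes 1.50% were called higher in Doxy(+) and 0.479% lower. Of the 10 SLC2 genes, 8 were tested, and SLC2A3 was called higher and SLC2A2 lower. With the adjusted p alone, 9.76% of all tested genes were higher and 9.53% lower, and the SLC2 genes were SLC2A3 and SLC2A13 on the higher side and SLC2A2 and SLC2A1 on the lower. The CPM values of the groups did not overlap for 6 of the 8 genes, against 61.1% of all tested genes. Because the genes were selected with this comparison known, nothing is read from these counts. The median log2 fold change was -0.03 over the 8 genes and 0.00062 over all tested genes.

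**Figure D1:**
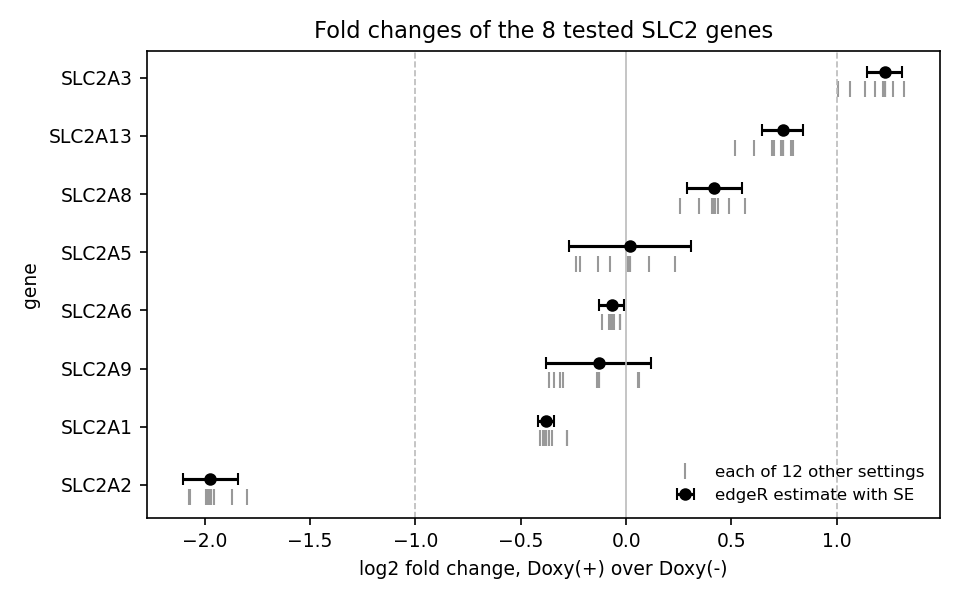
Log2 fold change of each tested SLC2 gene, Doxy(+) over Doxy(-), from edgeR, with a standard error derived from its F statistic (black). Gray ticks give the estimate under each of 12 other settings, and dashed lines mark the limits of 1 and -1. SLC2A2 lies below -1 and SLC2A3 above 1 at every setting, SLC2A13 stays between 0.52 and 0.79, and SLC2A5 and SLC2A9 have estimates on both sides of 0.

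To show the start regions of the most abundant gene, of the gene called lower and of the gene whose window held a CACGTG, the 250 bases before the annotated start are printed for SLC2A1, SLC2A2 and SLC2A13 from RefSeq on GRCh38.p14, 5′ to 3′ on the strand of the gene. Capitals mark TATAAA in SLC2A1 and CACGTGA in SLC2A13, which is TCACGTG read on the other strand, while the SLC2A2 stretch holds neither and is all in lower case. CACGTG is the E-box core that TFE3 and its relatives are known to bind.
SLC2A1, chr1:42958869-42959118, minus strand: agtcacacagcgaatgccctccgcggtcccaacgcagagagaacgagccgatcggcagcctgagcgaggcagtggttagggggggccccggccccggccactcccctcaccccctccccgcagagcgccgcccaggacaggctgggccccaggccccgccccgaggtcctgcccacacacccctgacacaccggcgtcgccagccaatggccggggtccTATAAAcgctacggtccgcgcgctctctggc
SLC2A2, chr3:171026721-171026970, minus strand: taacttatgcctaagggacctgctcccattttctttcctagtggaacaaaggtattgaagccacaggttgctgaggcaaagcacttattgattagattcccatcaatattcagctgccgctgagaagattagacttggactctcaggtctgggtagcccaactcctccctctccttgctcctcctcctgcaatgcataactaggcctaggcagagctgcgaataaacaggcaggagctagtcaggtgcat
SLC2A13, chr12:40106082-40106331, minus strand: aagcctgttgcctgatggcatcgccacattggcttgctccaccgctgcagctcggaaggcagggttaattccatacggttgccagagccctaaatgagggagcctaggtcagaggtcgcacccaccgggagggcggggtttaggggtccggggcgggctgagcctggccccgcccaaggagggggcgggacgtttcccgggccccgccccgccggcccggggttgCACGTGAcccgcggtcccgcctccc

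The table of RefSeq promoters, each 250 bases before to 50 after a start, held 9 of the 10 genes in 10 windows, and SLC2A3 was not searched. CACGTG, searched on both strands, occurred in the SLC2A13 window, with its first base 25 bases before the start, and in no other window of the 9 genes. Over all 35116 promoters 7.26% held CACGTG, and the longer TCACGTG was in 3.71%. The TATA box letters TATAAA were found in SLC2A1, 31 bases before the start, and in SLC2A5, 29 bases before it, and 11.5% of all promoters held it. GGGCGG, the core of a GC box, was present 2 times in SLC2A1, 4 times in SLC2A6, 6 times in SLC2A8, 3 times in SLC2A10, 6 times in SLC2A13 and 1 time in a window of SLC2A9, against 44.95% of all promoters with at least 1. The windows fell into a CpG-rich set with 29 to 33 CpG (SLC2A1, SLC2A6, SLC2A8, SLC2A10 and SLC2A13) and a CpG-poor set with 2 to 5 (SLC2A2, SLC2A5, both windows of SLC2A9 and SLC2A12). Over all promoters the median was 14, with 24.2% at 29 or more and 33.7% at 5 or fewer. SLC2A2 had the fewest of the 10 windows, at 2 CpG and 49.0% GC. These matches are letters in a window, and no binding was measured here.

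Among class I genes, SLC2A2 (ENSG00000163581, hg38 chr3:170996347-171026743, minus strand), which encodes GLUT2, was at 18.2 and 20.9 CPM in Doxy(-) and 5.04 and 4.91 CPM in Doxy(+). Both Doxy(+) libraries lay far under both Doxy(-) libraries. The group means were 19.6 ± 1.86 and 4.98 ± 0.0931 CPM (SD, n = 2 each), a 3.93-fold lower level in Doxy(+), and the log2 fold change was -1.97 (SE 0.130). The deposited TPM, at 12.3 and 13.0 in Doxy(-) and 2.85 and 2.999 in Doxy(+), gave a 4.33-fold difference. In bulk RNA, fewer cells making a transcript and less of it per cell cannot be told apart.

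The main coding transcript of the gene, SLC2A2-201, was at 12.4 and 16.8 CPM in Doxy(-) and 3.77 and 2.77 CPM in Doxy(+), and made up between 56.4% and 80.3% of the gene's counts. A second transcript, SLC2A2-203, annotated as a target of nonsense-mediated decay, was also lower in both Doxy(+) libraries, at 4.38 and 2.58 CPM against 0.6997 and 0.968 CPM. The third, SLC2A2-205, likewise annotated for decay, was at 1.19 and 1.03 CPM in Doxy(-) and 0.568 and 1.17 CPM in Doxy(+), with overlapping groups. Reads divided between transcripts of a gene are estimates of the authors' quantifier.

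Over the 4 libraries, the genes whose log2 CPM pattern lay closest to that of SLC2A2 were THBS1, which encodes the matrix protein thrombospondin 1, F3 (tissue factor), the cytokine gene IL11 and the prostaglandin transporter gene SLCO2A1. Likeness was the Euclidean distance between centered log2 CPM values among the 9607 genes averaging 10 CPM or more, and came to 0.168, 0.430, 0.450 and 0.458. THBS1 was at 139 and 136 CPM in Doxy(-) and 35.3 and 34.6 CPM in Doxy(+).

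SLC2A3 (ENSG00000059804, chr12:7919230-8019007, minus strand), which encodes GLUT3, was the class I member that was higher in Doxy(+). It was at 25.2 and 22.1 CPM in Doxy(-) and 53.5 and 56.9 CPM in Doxy(+). Both Doxy(+) libraries lay well over both Doxy(-) libraries. Its means of 23.6 ± 2.22 and 55.2 ± 2.36 CPM (SD, n = 2 each) stood 2.34-fold apart, with a log2 fold change of 1.23 (SE 0.0814). Its coding transcript SLC2A3-201 held 89.2% to 94.9% of the counts, at 22.5 and 20.1 CPM in Doxy(-) and 50.8 and 51.8 CPM in Doxy(+).

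SLC2A3 has near-identical sequence elsewhere, so reads could be divided between genes and its values are uncertain to that extent. Of all 31-base stretches of SLC2A3-201, 40.8% also occur in transcripts of another SLC2 gene and 38.2% in those of SLC2A14. The SLC2A14 transcript SLC2A14-215 shares 46.1% of its own with the family. A processed pseudogene, SLC2A3P1, carried 6.15 and 4.43 CPM in Doxy(-) and 4.14 and 5.65 CPM in Doxy(+), with overlapping groups. SLC2A14, a close copy of SLC2A3 on the same chromosome, was at 0.681 and 0.377 CPM in Doxy(-) and 1.38 and 1.05 CPM in Doxy(+). It differed by 1.14 on the log2 scale (SE 0.464), with an adjusted p of 0.147 by edgeR's quasi-likelihood test with Benjamini-Hochberg adjustment. No 31-base stretch of the other members' main coding transcripts was shared within the family except 0.610% in SLC2A6.

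SLC2A1 (ENSG00000117394, chr1:42925353-42958893, minus strand), which encodes GLUT1, was the most abundant SLC2 transcript in every library. It was at 209.5 and 201 CPM in Doxy(-) and 156 and 159 CPM in Doxy(+), and the groups did not overlap. The means were 205 ± 5.998 and 158 ± 2.05 CPM (SD, n = 2 each), with a log2 fold change of -0.38 (SE 0.0392), inside the limit of 1. Transcript SLC2A1-203 carried 96.8% to 97.7% of its counts. An exon of the unnamed gene ENSG00000288955 overlaps SLC2A1 on the opposite strand, and whether the counting used the strand is not stated. The genes nearest to SLC2A1 in pattern, at distances of 0.0119 to 0.0245, were TAGLN2, CADM1, EIF6 and PIMREG, each with a log2 fold change between -0.40 and -0.36.

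SLC2A4, which encodes the insulin-responsive GLUT4 of muscle and fat, was at 0.842 and 0.969 CPM in Doxy(-) and 1.53 and 0.857 CPM in Doxy(+), and the groups overlapped. Its log2 fold change of 0.43 (SE 0.430) had an adjusted p of 0.544 by the same edgeR test. In 3 of the 4 libraries no count lay on a coding transcript of SLC2A4.

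**Figure D2:**
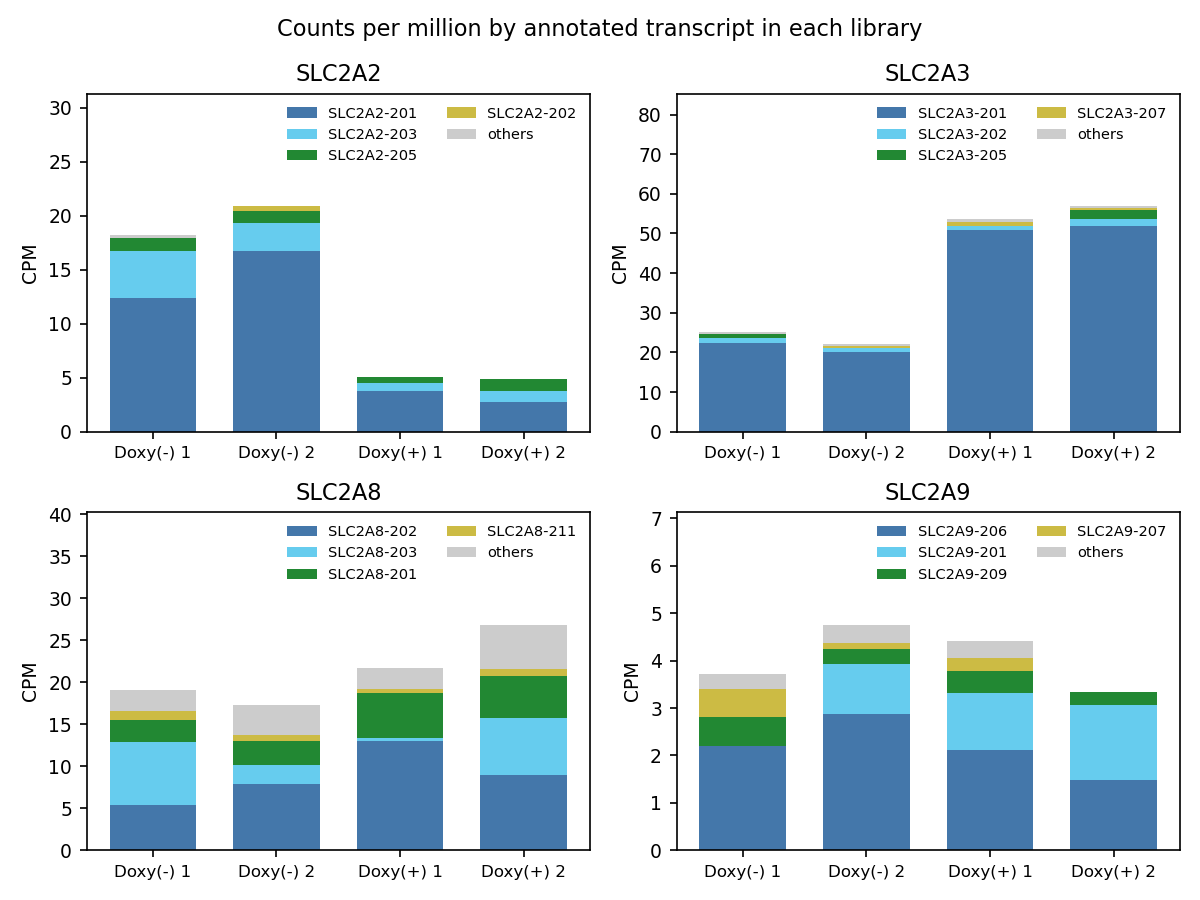
CPM of the annotated transcripts of SLC2A2, SLC2A3, SLC2A8 and SLC2A9 in each of the 4 libraries, stacked by transcript on linear axes that start at 0. SLC2A2-201 and SLC2A2-203 are lower and SLC2A3-201 is higher in both Doxy(+) libraries, whereas the split between SLC2A8-202 and SLC2A8-203 varies within each group.

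Both class II members had few counts. SLC2A5 (ENSG00000142583, chr1:9035106-9088478, minus strand), encoding the fructose carrier GLUT5, was at 2.60 and 2.33 CPM in Doxy(-) and 2.10 and 2.93 CPM in Doxy(+). One Doxy(+) library lay under and the other over both Doxy(-) libraries, and the log2 fold change was 0.02 (SE 0.289). SLC2A9 (ENSG00000109667, chr4:9771153-10054936, minus strand), encoding the urate carrier GLUT9, was at 3.72 and 4.76 CPM in Doxy(-) and 4.42 and 3.35 CPM in Doxy(+). These groups overlapped too, with a log2 fold change of -0.13 (SE 0.249). With 27.0 to 70.0 counts per library for these genes, a difference within these standard errors was not detectable at this depth. Differences larger than these standard errors may also have been missed.

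Most SLC2A9 counts did not lie on coding transcripts. Coding transcripts took 0, 22.4%, 27.4% and 47.2% of them in Doxy(-) 1, Doxy(-) 2, Doxy(+) 1 and Doxy(+) 2, and the leading transcript in every library but the last was SLC2A9-206, which has no defined coding sequence. SLC2A11, a further class II gene that lies outside the 10, was at 23.1 and 26.1 CPM in Doxy(-) and 27.8 and 29.4 CPM in Doxy(+). It differed by 0.22 on the log2 scale (SE 0.0895), with an adjusted p of 0.146 by the same edgeR test, and 31.9% to 37.96% of its counts lay on coding transcripts. SLC2A7 had 0 to 2 counts per library and was not tested.

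Among class III genes, SLC2A13 (ENSG00000151229, chr12:39755025-40106089, minus strand) led the 3 that were tested, with a log2 fold change of 0.74 (SE 0.0975). This gene, which encodes HMIT, was at 12.4 and 13.3 CPM in Doxy(-) and 20.9 and 22.1 CPM in Doxy(+), so that both Doxy(+) libraries were higher. Its means of 12.8 ± 0.619 and 21.5 ± 0.871 CPM (SD, n = 2 each) were 1.67-fold apart. Transcript SLC2A13-201 went from 10.5 and 11.7 CPM in Doxy(-) to 19.8 and 19.3 CPM in Doxy(+), and the shorter coding transcript SLC2A13-202 was at 1.46 and 1.20 CPM in Doxy(-) and 0.862 and 1.86 CPM in Doxy(+). The gene C12orf40 has an exon overlapping SLC2A13 on the opposite strand.

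SLC2A8 (ENSG00000136856, chr9:127397138-127408424, plus strand), encoding the intracellular carrier GLUT8, was at 19.1 and 17.3 CPM in Doxy(-) and 21.7 and 26.9 CPM in Doxy(+). The groups did not overlap, but the Doxy(+) libraries were further apart than the nearest libraries of the 2 groups, and the log2 fold change was 0.42 (SE 0.129). SLC2A8-202, the leading coding transcript, was at 5.42 and 7.93 CPM in Doxy(-) and 13.0 and 8.95 CPM in Doxy(+). SLC2A8-203 ranged from 0.2998 to 7.42 CPM with no order by group, and the short coding transcript SLC2A8-201 was at 2.62 and 2.81 CPM in Doxy(-) and 5.41 and 4.93 CPM in Doxy(+).

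SLC2A6 (ENSG00000160326, chr9:133471094-133479127, minus strand), encoding GLUT6, a carrier of lysosomal membranes, was at 43.2 and 40.7 CPM in Doxy(-) and 39.6 and 40.3 CPM in Doxy(+). The groups did not overlap, yet they were 0.381 CPM apart at the nearest libraries, and the log2 fold change was -0.07 (SE 0.0609). Within the gene, SLC2A6-202 was at 34.1 and 28.7 CPM in Doxy(-) and 23.5 and 30.3 CPM in Doxy(+), with overlapping groups. SLC2A10 (ENSG00000197496, chr20:46709649-46736347, plus strand), encoding GLUT10, had 3, 6, 7 and 6.01 estimated counts in Doxy(-) 1, Doxy(-) 2, Doxy(+) 1 and Doxy(+) 2. SLC2A12 (ENSG00000146411, chr6:133987581-134052624, minus strand), encoding GLUT12, had 1.09, 5.62, 4.83 and 2.33, and an exon of TBPL1 overlaps it on the opposite strand. Neither passed the low-count filter, so neither was tested. For scale, a count of 0 already allows up to 3 counts, or 0.204 to 0.233 CPM in these libraries. With so few counts, a difference between the groups could be missed for either gene at this depth.

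**Figure D3:**
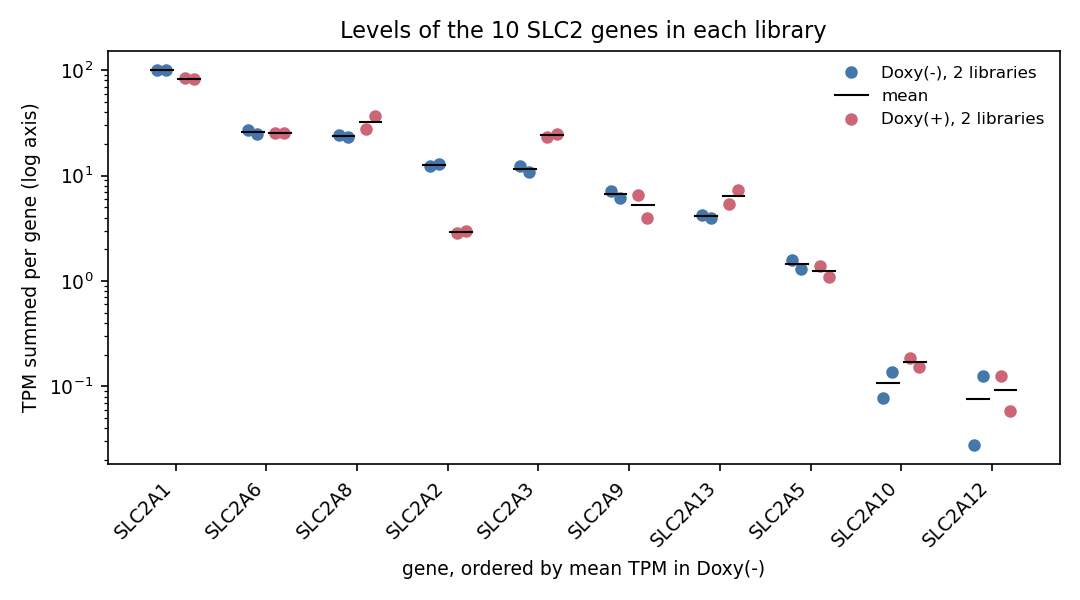
Summed TPM of each of the 10 SLC2 genes in each library on a log axis, Doxy(-) in blue and Doxy(+) in red, with a bar at the group mean of 2 libraries. SLC2A1 is the highest in all libraries, at 82.0 to 101.6 TPM, SLC2A2 and SLC2A3 move in opposite directions, and SLC2A10 and SLC2A12 stay under 0.2 TPM.

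To rank the family by level, TPM summed per gene was compared within each group. In Doxy(-) the order was SLC2A1 (101 ± 0.0877 TPM, SD, n = 2), SLC2A6 (25.9 ± 1.75), SLC2A8 (23.7 ± 0.688), SLC2A11 (20.2 ± 1.47), SLC2A2 (12.7 ± 0.455), SLC2A3 (11.5 ± 1.01), SLC2A9 (6.65 ± 0.734), SLC2A13 (4.10 ± 0.179) and SLC2A5 (1.45 ± 0.210). SLC2A14, SLC2A4, SLC2A10, SLC2A12 and SLC2A7 followed at 0.720 TPM or less. The libraries of neighboring genes in this order overlapped for SLC2A10 with SLC2A12 and for SLC2A12 with SLC2A7.

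In Doxy(+) SLC2A1 was still first (83.5 ± 2.10 TPM, SD, n = 2), followed by SLC2A8 (32.5 ± 6.48), SLC2A6 (25.3 ± 0.0775), SLC2A11 (25.3 ± 3.75), SLC2A3 (24.2 ± 1.07), SLC2A13 (6.35 ± 1.34), SLC2A9 (5.29 ± 1.87), SLC2A2 (2.92 ± 0.106), SLC2A14 (1.43 ± 0.255) and SLC2A5 (1.24 ± 0.215), with SLC2A4, SLC2A10, SLC2A12 and SLC2A7 at 0.668 TPM or less. SLC2A2 went from place 5 to place 8, and SLC2A13 from place 8 to place 6. The libraries of SLC2A6 overlapped with those of SLC2A11, and those of SLC2A11 with those of SLC2A3, as did those of SLC2A13 with SLC2A9 of SLC2A14 with SLC2A5 and of SLC2A12 with SLC2A7. SLC2A3 was therefore not separated from SLC2A11, nor SLC2A11 from SLC2A6, by more than their spread.

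The summed TPM of the 14 genes lay at 211 and 207 in Doxy(-) beside 203 and 215 in Doxy(+), with overlapping groups, while its make-up differed. SLC2A1 took 48.1% and 49.0% of it in Doxy(-) and 41.8% and 38.2% in Doxy(+). SLC2A3 took 5.80% and 5.22% in Doxy(-) and 11.5% and 11.6% in Doxy(+). SLC2A2 took 5.84% and 6.26% in Doxy(-) and 1.40% in each Doxy(+) library. Thus by this TPM SLC2A2 and SLC2A3, close to equal in Doxy(-), stood 8.26-fold apart in Doxy(+). With the copy of SLC2A2-203 described below added, SLC2A2 was at 16.1 TPM and SLC2A3 at 11.5 TPM in Doxy(-). In Doxy(+) they were then at 3.78 and 24.2 TPM. The SLC2A8 share of 11.5% and 11.2% in Doxy(-) compared with 13.7% and 17.3% in Doxy(+), and that of SLC2A6 lay between 11.8% and 12.8% with overlapping groups. CPM per kilobase of the leading coding transcript, a measure chosen after seeing the data, gave groups whose totals over the 14 genes did not overlap. Doxy(-) libraries spanned 115.7 to 118.8 by this measure, above the Doxy(+) span of 109.3 to 113.9. Of these totals SLC2A1 took 54.8% and 54.0% in Doxy(-) and 44.4% and 43.4% in Doxy(+). By the same measure SLC2A3 stood at place 3 in Doxy(+).

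**Figure D4:**
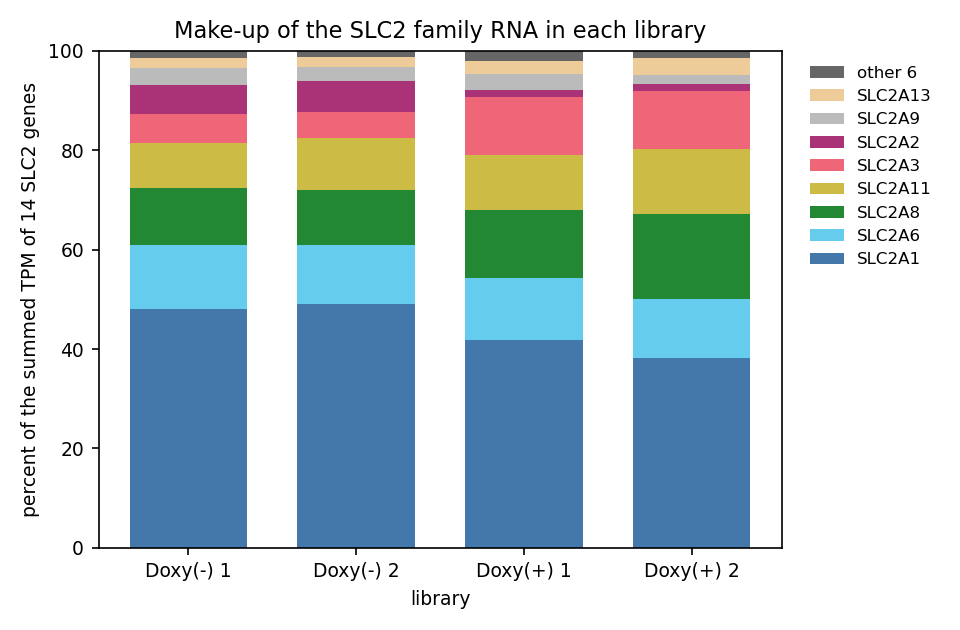
Percent of the summed TPM of 14 SLC2 genes held by each gene in each library, stacked to 100 on a linear axis, with the 6 least abundant genes joined. The SLC2A3 share is 5.22% to 5.80% in Doxy(-) and 11.5% to 11.6% in Doxy(+), and the SLC2A2 share 5.84% to 6.26% and 1.40%.

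Transcript identifiers without a current gene were then searched for copies of SLC2 transcripts, defined by the same length and the same counts in all 4 libraries as a matched transcript. SLC2A6 had 4 such copies, with 555, 599, 509 and 540.0 counts in Doxy(-) 1, Doxy(-) 2, Doxy(+) 1 and Doxy(+) 2, about as many as the gene itself. With these added SLC2A6 reached 51.5 ± 3.18 TPM in Doxy(-) and 50.3 ± 0.169 TPM in Doxy(+) (SD, n = 2 each) and stood at place 2 in both groups. SLC2A2 had 1 copy, of SLC2A2-203, with 56.6, 37.96, 9.02 and 13.0 counts. Its level with the copy was 16.1 ± 0.834 TPM in Doxy(-) and 3.78 ± 0.299 TPM in Doxy(+), so the decrease was present with and without it. No copy was found for the other 8 genes.

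Next, 71 genes that surround the transporters were examined in 7 lists arranged by role. The lists were written with earlier results of these data known, so their counts and adjusted p values are given as a description. Of these, 49 were tested, 1 was called lower and 0 higher by edgeR's quasi-likelihood test with both limits. At an unadjusted p under 0.05 with the same fold limit 2 more genes were past it, SLC2A14 on the higher side and SLC17A1 on the lower, and neither DESeq2 nor limma called any listed gene. With the adjusted p alone 12 were higher and 5 lower, beside 9.76% and 9.53% of all tested genes, a background that also holds for the counts by list below. The median log2 fold change was 0.14. The CPM values of the groups did not overlap for 36 of the 49 genes, beside 61.1% of all tested genes.

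Of the 7 sodium-coupled SLC5 genes 2 were tested, and SLC5A3, a myo-inositol cotransporter like HMIT, rose from 28.3 and 28.6 CPM in Doxy(-) to 34.7 and 35.5 CPM in Doxy(+), with a log2 fold change of 0.31 (SE 0.0648, adjusted p = 0.0238 by edgeR). SLC5A2, which encodes SGLT2, the luminal glucose carrier of the early proximal tubule, was at 3.57 and 3.67 CPM in Doxy(-) and 4.06 and 2.93 CPM in Doxy(+), with overlapping groups (adjusted p = 0.891 by edgeR). Of 21 genes of hexose entry into metabolism 13 were tested, 3 rose and 1 fell by the adjusted p alone. The hexokinase-domain gene HKDC1 rose from 310.4 ± 11.005 to 439 ± 16.4 CPM (SD, n = 2 each), with a log2 fold change of 0.50 (SE 0.0418, adjusted p = 0.000914 by edgeR). AKR1B1, the aldose reductase of the polyol pathway, fell from 3892 ± 302 to 3161 ± 26.0 CPM, with a log2 fold change of -0.30 (SE 0.0510, adjusted p = 0.0111 by edgeR).

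All 16 regulators of GLUT traffic and stability were tested, and 4 rose and 2 fell by the adjusted p alone. SNX27, which recycles GLUT1 to the cell surface with the retromer, rose from 42.1 and 49.0 CPM in Doxy(-) to 71.6 and 71.8 CPM in Doxy(+), with a log2 fold change of 0.65 (SE 0.0801, adjusted p = 0.00368 by edgeR). TXNIP, an alpha-arrestin that promotes removal of GLUT1 from the surface, fell from 69.8 and 69.6 CPM in Doxy(-) to 49.0 and 50.8 CPM in Doxy(+), with a log2 fold change of -0.48 (SE 0.0535, adjusted p = 0.00257 by edgeR). Of 8 factors known at the SLC2A2 promoter 4 were tested, and 2 rose by the adjusted p alone. The sterol-responsive factor gene SREBF1 rose from 96.2 and 87.3 CPM in Doxy(-) to 157 and 174 CPM in Doxy(+), with a log2 fold change of 0.85 (SE 0.0708, adjusted p = 0.000903 by edgeR). PPARG, a nuclear receptor gene, rose from 20.5 ± 0.156 to 26.7 ± 1.93 CPM (SD, n = 2 each), with a log2 fold change of 0.38 (SE 0.0881, adjusted p = 0.0307 by edgeR). HNF4A, FOXA2 and ONECUT1 of that list were too low to test.

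Among urate genes, listed beside SLC2A9, 5 of 9 were tested, and 2 fell by the adjusted p alone. SLC17A3, a urate exit carrier of the luminal membrane, was the only listed gene past both limits, with 34, 25, 8 and 9 counts in Doxy(-) 1, Doxy(-) 2, Doxy(+) 1 and Doxy(+) 2 and a log2 fold change of -1.73 (SE 0.400, adjusted p = 0.0318 by edgeR). That call was lost without Doxy(-) 1 (adjusted p = 0.168), without Doxy(+) 1 (0.144), without Doxy(+) 2 (0.125) with DESeq2 (0.153) and with limma on log2 TPM (0.0763 and 0.0766 for added values of 1 and 0.1). PDZK1, a scaffold protein of luminal carriers, fell from 24.2 ± 2.96 to 15.5 ± 0.811 CPM (SD, n = 2 each), with a log2 fold change of -0.64 (SE 0.116, adjusted p = 0.0142 by edgeR). All 6 genes of myo-inositol and ascorbate handling were tested, and 2 rose by the adjusted p alone. SLC23A2, an ascorbate carrier, rose from 78.7 ± 3.40 to 122 ± 0.748 CPM, with a log2 fold change of 0.63 (SE 0.0497, adjusted p = 0.000779 by edgeR). MIOX, the oxygenase that breaks down myo-inositol in the kidney, rose from 45.6 ± 3.91 to 64.6 ± 0.159 CPM, with a log2 fold change of 0.50 (SE 0.0712, adjusted p = 0.00581 by edgeR).

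**Figure D5:**
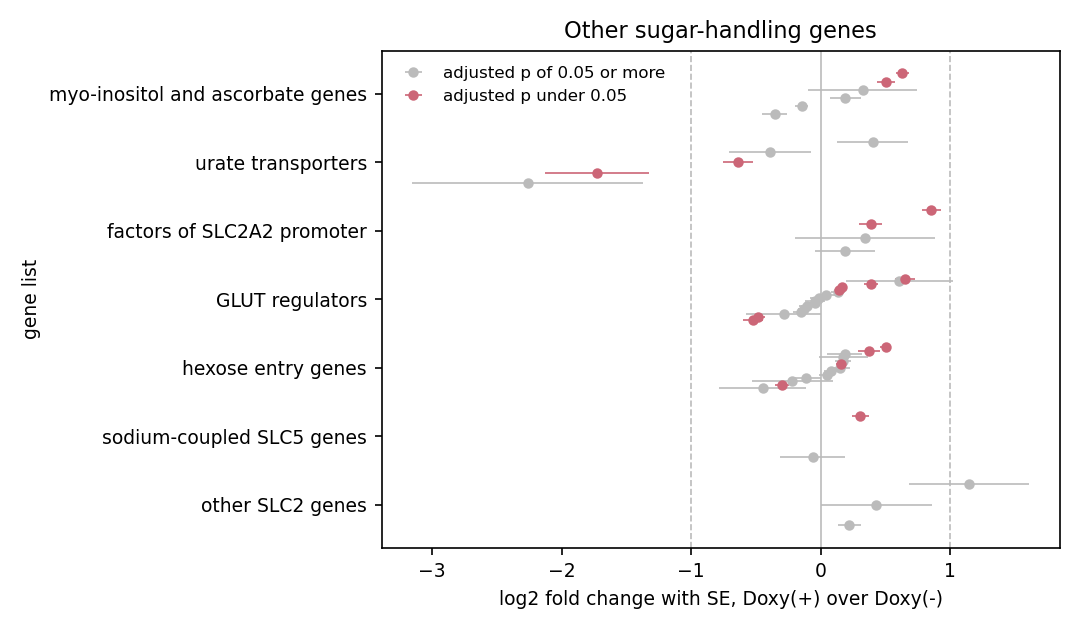
Log2 fold change with its standard error, Doxy(+) over Doxy(-), of the 49 tested genes of 7 lists around the SLC2 genes; points in red have an adjusted p under 0.05 and dashed lines mark 1 and -1. One red point, SLC17A3 at -1.73, lies beyond the dashed lines, and SREBF1 at 0.85 is the highest of the red points.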

How the data were processed

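PolyA RNA libraries, 2 of Doxy(-) and 2 of Doxy(+) cells, were analyzed from the authors' tables. The submitters' processing notes name Trim Galore 0.6.6, cutadapt 2.5, STAR 2.7.9a and hg38, and the study's methods add RSEM, yet the deposited tables have the columns of another quantifier, kallisto. Each lists 180253 Ensembl transcripts with estimated counts and TPM. The deposited estimated counts are expected read counts per transcript, neither normalized nor whole, and the deposited TPM values sum to 1000000 in each library. The release of Ensembl, the quantifier's version and its use of strand are not given in the sources used here.

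Of the identifiers, 150691 (83.6%) matched GENCODE release 44 on hg38. The 29562 others held 9.66% to 9.89% of the counts and were left out of the tests and the scaling. Of the 118 SLC2 transcripts, 20 have another length in that release than in the tables. Counts were summed per GENCODE gene identifier, rounded, filtered with filterByExpr and scaled with TMM. They were tested with edgeR 4.0.16 (glmQLFit and glmQLFTest, R 4.3.3), with group as the only term and Benjamini-Hochberg adjustment over 13569 genes. Calls needed an adjusted p under 0.05 and a log2 fold change above 1 or below -1. The biological coefficient of variation was 6.53%. Standard errors (SE) given with edgeR are the absolute log2 fold change divided by the square root of the quasi-likelihood F statistic. The SE from DESeq2 was larger, at 0.268 against 0.130 for SLC2A2 and 0.152 against 0.0814 for SLC2A3. The fit was tested on simulated data. Replicates were separate libraries by their counts, with a chi-square per degree of freedom of 4.22 in Doxy(-) and 2.99 in Doxy(+). Floors (3 counts) cover counting error only. DESeq2 1.42.0, limma 3.58.1 on log2(TPM + 1) and log2(TPM + 0.1), RLE scaling, other filters, a replicate block, added copies and leaving out each library were the alternatives.

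The 10 genes and the lists were chosen with earlier results of these data known. Named besides the 14 SLC2 genes were TFE3, PRCC, the 2 tested genes of smallest p in each list, every listed gene past both limits, and the 4 genes closest in pattern to SLC2A2 and to the most abundant member. Other genes named were picked for their role or marker status, and some listed genes are not reported here. Where the text gives a start and an end they are 1-based.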

Additional observations from a re-analysis of the deposited data

Results flagged for a closer look

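Reads on transcript identifiers without a current gene, which the gene totals leave out and only the alternative with added copies uses, were found for 2 of the SLC2 genes. The identifiers identical to SLC2A6 transcripts carried a mean of 41.9 CPM in Doxy(-) and 39.8 CPM in Doxy(+), as much as SLC2A6 itself. The identifier identical to SLC2A2-203 carried a mean of 3.48 CPM in Doxy(-) and 0.834 CPM in Doxy(+).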

How the results depend on the processing

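The SLC2 genes were selected on these same counts, so their ranges over the 12 alternatives are a description and lend them no support. The log2 fold change was -2.08 to -1.80 for SLC2A2 and 1.01 to 1.32 for SLC2A3, and 2 SLC2 genes were past both limits in each alternative. SLC2A1 ranged from -0.41 to -0.28, SLC2A6 from -0.11 to -0.03, SLC2A8 from 0.25 to 0.56 and SLC2A13 from 0.52 to 0.79. SLC2A5 ranged from -0.24 without Doxy(+) 2 to 0.23 without Doxy(+) 1, and SLC2A9 from -0.37 with limma on log2(TPM + 0.1) to 0.06 without Doxy(-) 2. Over all genes, 203 were higher and 65 lower. With limma on log2(TPM + 1) these were 129 and 34, and on log2(TPM + 0.1) 160 and 39. DESeq2 gave 145 and 47, and testing without the low-count filter 225 and 97. Leaving out 1 library gave 147 to 216 higher and 67 to 88 lower. Listed sugar-handling genes past both limits numbered 0 with DESeq2 and with both limma fits, and 0 to 1 when 1 library was left out, against 1 in the edgeR fit on all libraries. The cause was not tested. In the order of levels, SLC2A6 moved to place 2 and SLC2A3 to place 3 in Doxy(+) by CPM per kilobase, which was chosen after seeing the data. By the same measure SLC2A8 moved from place 2 to place 4 and SLC2A5 from place 10 to place 11 in Doxy(+). By TPM with copies added, SLC2A6 stood at place 2 and SLC2A8 at place 3 in Doxy(+). The libraries share only a number across groups: a replicate block gave 204 genes higher and 68 lower and 2 SLC2 genes past both limits, and the deviations of the libraries numbered 1 correlated at r = -0.22 over 9607 genes. Depth limits SLC2A10, SLC2A12 and SLC2A7, which were too low to test.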
